A study of Mus musculus with 14 samples.

Results

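The genes described here encode the heparin-binding growth factors midkine (Mdk) and pleiotrophin (Ptn), the cytokine macrophage migration inhibitory factor (Mif), the receptor tyrosine phosphatase zeta (Ptprz1), the hyaluronan receptor Cd44 and the 4 syndecans Sdc1, Sdc2, Sdc3 and Sdc4. They were chosen by symbol: each of the 9 was a row of the gene count table, which held 24062 genes. Midkine and pleiotrophin are related secreted proteins that bind the chondroitin sulfate chains of PTPRZ1 and the heparan sulfate chains of syndecans. Ligand binding lowers the phosphatase activity of PTPRZ1, and the low-density lipoprotein receptor family member LRP1, the kinase ALK and nucleolin also take part in midkine and pleiotrophin signaling. MIF is a secreted and cytoplasmic protein that signals through a complex of CD74 and CD44 and through chemokine receptors. In peripheral nerve, Schwann cells and their precursors are known for syndecan-3 and CD44, and pleiotrophin is a trophic factor that denervated nerve makes.

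The samples were bulk RNA-seq libraries from mouse dorsal root ganglion (DRG) and nerve tissue and from plexiform neurofibromas (PNs), benign tumors that form around DRGs when the Ras-GTPase activating protein neurofibromin is lost from the Schwann cell (SC) lineage. Controls were 3 DRG samples from Nf1fl/fl mice, which carry the floxed Nf1 alleles without a Cre, called DRG3, DRG4 and DRG5 here as in their labels. PNs came from 11 DhhCre;Nf1fl/fl mice, in which the desert hedgehog promoter drives Cre in the SC lineage from the embryo on, so that every other cell type of the tumor kept Nf1. The labels give a mixed C57BL/6, I-129 and FVBN background for all mice, and the study's methods call that of the tumor-bearing mice mainly C57BL/6. No drug was given, and tissue was collected at 9 months of age (7 months by a figure legend). Tumor growth had been measured by volumetric MRI over 2 months. The 5 slow-growing PNs had changed by less than 5 mm3 and the 6 fast-growing PNs had grown by more than 35 mm3. The comparisons asked which transcripts differ between tumor and normal tissue, and which differ between fast-growing and slow-growing tumors.

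Total gene counts per library ranged from 9596773 to 12403819 in controls, from 9900759 to 13439253 in slow-growing PNs and from 12159630 to 17594164 in fast-growing PNs. Levels are given as CPM, the reads of a gene per megaread of its library, after scaling of the libraries by the trimmed mean of M values (TMM). Nf1 itself was at 131 to 229 CPM in controls (median 153), 224 to 292 CPM in slow-growing PNs (median 254) and 224 to 276 CPM in fast-growing PNs (median 234). Its total level was thus not lower in the Cre-carrying samples, whose medians lay above that of the controls, and 1 of the 3 controls reached their range. In whole tissue, cells of other types keep the gene and a recombined allele can still be transcribed.

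The libraries differed in tissue makeup, judged by the summed CPM of marker genes (none of the markers named here was at 0 in every library of a group). The 10 Schwann cell markers summed to 10239 in DRG3 but to 3853 and 3492 in DRG4 and DRG5, against 7278 to 16169 in slow-growing and 6919 to 10335 in fast-growing PNs. The 12 neuron markers summed to 1682 to 6137 in controls, 2742 to 13288 in slow-growing PNs and 35.3 to 7814 in fast-growing PNs, and the lowest sum belonged to fast-growing PN 1191. The 15 skeletal muscle markers summed to 11672 to 41771 in controls, 80.2 to 13362 in slow-growing PNs and 408 to 8127 in fast-growing PNs. The 13 fat markers summed to 4433 to 6289 in controls, 47.7 to 3549.8 in slow-growing PNs and 46.6 to 325 in fast-growing PNs. The 8 fibroblast markers summed to 2851 to 5837 in controls and 2140 to 12403 in slow-growing PNs, and to 10935 to 22036 in fast-growing PNs, where they were highest. The 7 satellite glia markers summed to 1246 to 1479 in controls, 1049 to 1965 in slow-growing PNs and 1726 to 1974 in fast-growing PNs. This sum does not stand for each marker. In fast-growing PNs against controls 2 of the 7 passed as higher and 3 as lower, where 14.8% and 16.7% of tested genes did. Their median log2 fold change was -0.30. In bulk tissue, fewer cells of a type and less RNA per cell cannot be told apart, and the part of these differences in the results that follow was not tested except where a value is given.

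**Figure D1:**
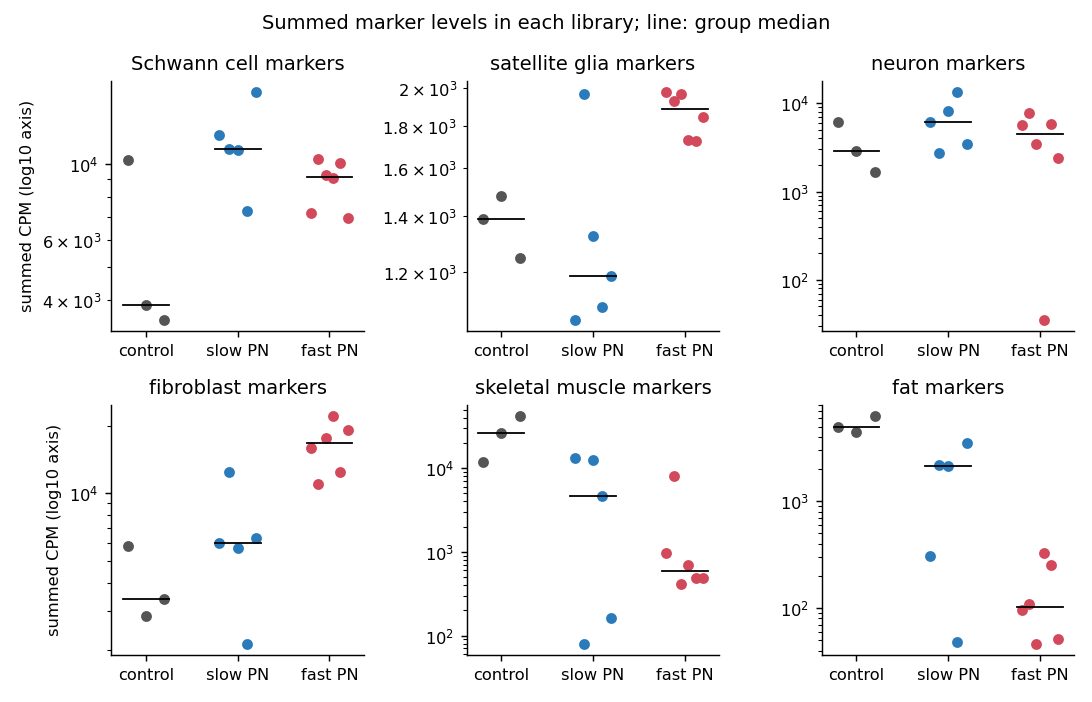
Summed CPM of 6 marker lists in each library (points, log10 axis) by group, with the group median as a line. Skeletal muscle and fat markers were highest in the controls (medians 26325 and 4935 CPM), and fibroblast markers were highest in the fast-growing PNs (median 16731 CPM).

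8 of these genes had higher fitted levels in PNs than in controls, and Mif had a lower one. PNs as a whole rose above controls for Ptn, Ptprz1, Sdc2 and Sdc3 and fell below them for Mif, so 5 of the 9 passed an adjusted p of 0.05 (edgeR quasi-likelihood test with Benjamini-Hochberg adjustment over 16283 genes), where 26.3% of all tested genes did. The 4 higher calls became 2 without DRG4 and 0 without DRG5, and the genes called among all tested went from 4283 to 2476 and 2061. In no gene of the set were all PNs above all controls, which held for 8.18% of tested genes. With muscle and fat marker scores as covariates, none of the 9 passed in any of the 4 comparisons, and the log2 fold changes of the 4 higher calls in PNs went to 0.50 for Ptn, 0.36 for Ptprz1, 0.16 for Sdc2 and 0.25 for Sdc3. In fast-growing PNs against the same controls all 9 passed, 8 of them higher, where 14.8% of tested genes were higher, 31.4% passed in either direction and 41.8% had an unadjusted p under 0.05. The groups did not overlap for any of the 9, as for 32.4% of tested genes. In slow-growing PNs against controls 1 of the 9, Mif, passed, where 11.3% of tested genes did (4.12% higher and 7.13% lower). Ptn, Ptprz1 and Mif had an unadjusted p under 0.05, as did 30.3% of tested genes, and Mif alone had groups that did not overlap, as did 23.4%. Both comparisons used the same 3 controls, so the direct test of fast-growing against slow-growing PNs is the one that bears on growth. There, 1 of the 9, Sdc1, passed, where 1.27% of tested genes did, and 6 of the 9 had an unadjusted p under 0.05, where 20.4% of tested genes did. All fast-growing PNs were above all slow-growing PNs for 3 of the 9, Ptprz1, Sdc1 and Sdc2, and for 2.10% of tested genes. The median log2 fold change of the 9 against controls was 1.09 in PNs, 0.67 in the slow-growing and 1.48 in the fast-growing PNs, and it was 0.98 in fast-growing against slow-growing PNs. The medians over all tested genes in these comparisons were 0.095, 0.038, 0.019 and -0.033.

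**Figure D2:**
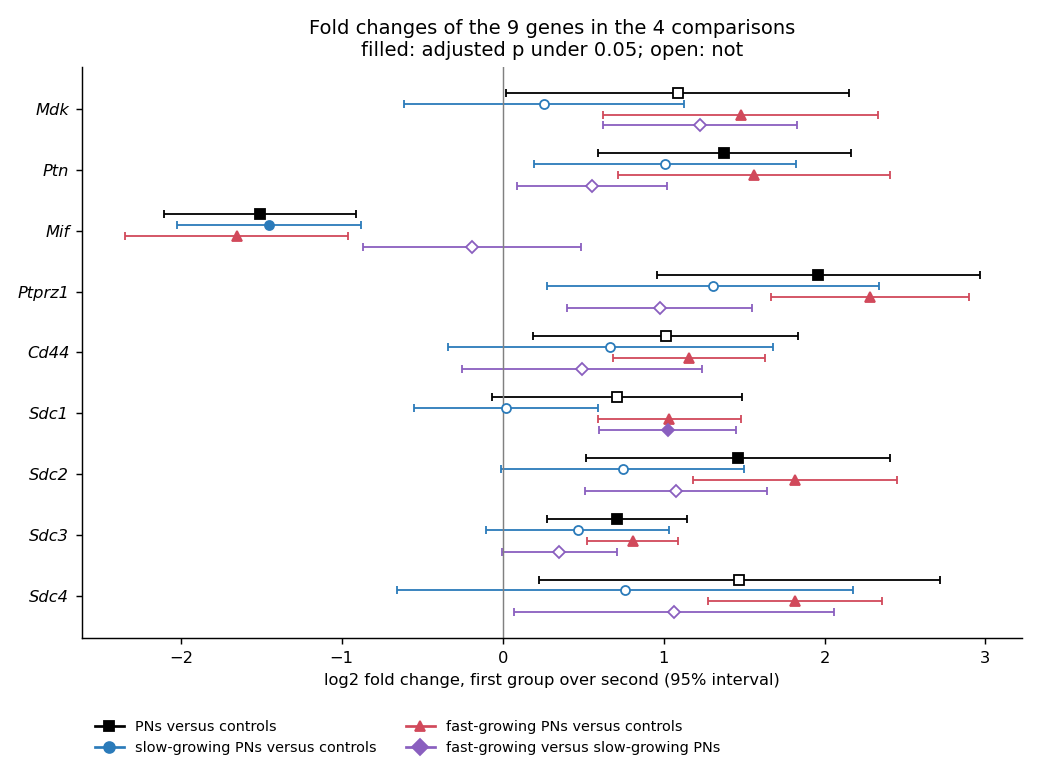
Log2 fold change (x axis, with 95% interval) of each gene (y axis) in the 4 comparisons, with filled markers where the adjusted p was under 0.05. All 9 markers of the fast-growing PN against control comparison are filled, and Mif alone lies to the left of 0 in the 3 comparisons with controls, from -1.45 to -1.65.

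The ligands of PTPRZ1 were measured at low and moderate levels. Midkine, a growth factor abundant in the embryo and re-expressed after injury, was at 5.87, 2.77 and 2.54 CPM in the 3 controls. In slow-growing PNs, Mdk was at 4.25, 7.06, 3.96, 4.29 and 3.28 CPM. Among fast-growing PNs, its lowest, median and highest values were 5.97, 10.8 and 15.4 CPM. Every fast-growing PN was above every control, although PN 1191 exceeded DRG3 by only a small margin, and 5 of the 6 were above every slow-growing PN. Mdk rose 2.79-fold in fast-growing PNs against controls (log2 fold change 1.48 ± 0.38 SE, edgeR adjusted p = 0.0156), a call that ended without DRG4 (adjusted p = 0.0700) or without DRG5 (adjusted p = 0.0677). Against slow-growing PNs, fast-growing PNs had a 2.34-fold higher fitted level (95% interval 1.54 to 3.56), which missed the threshold (edgeR adjusted p = 0.0531) and passed with DESeq2 (adjusted p = 0.00224) and without PN 1198A (adjusted p = 0.0128). For all PNs (fitted fold 2.12, adjusted p = 0.121) and for slow-growing PNs (fitted fold 1.19, adjusted p = 0.665) against controls, the edgeR test was not passed. When every library was corrected for its trend over transcript length and GC content, the Mdk log2 fold change went to 1.68 in PNs, where it passed (adjusted p = 0.0293), and to 2.10 in fast-growing PNs (adjusted p = 0.00361). With muscle and fat marker scores as covariates its direction against controls turned, to -0.78 in PNs, -0.24 in slow-growing and -1.11 in fast-growing PNs (adjusted p = 0.439, 0.982 and 0.937). Between growth groups the Mdk log2 fold change went from 1.23 to 0.84 with these covariates (edgeR adjusted p = 0.495).

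Pleiotrophin, which promotes neurite outgrowth and glial proliferation, was at 53.3, 22.6 and 17.3 CPM in controls. In slow-growing PNs, Ptn was at 53.5, 72.5, 50.1, 74.4 and 70.7 CPM. The fast-growing PNs ranged from 55.6 through a median of 89.1 to 133 CPM. DRG3 stood at the lower end of the slow-growing PNs, and the 6 fast-growing PNs were above all controls. Ptn rose 2.599-fold in PNs (log2 fold change 1.38 ± 0.37 SE, edgeR adjusted p = 0.0133) and 2.95-fold in fast-growing PNs (1.56 ± 0.38 SE, adjusted p = 0.0118). Both calls ended without DRG4 (adjusted p = 0.0823 and 0.0570) or without DRG5 (0.0924 and 0.0552), the controls with the lower Schwann cell marker sums. Without DRG3 the log2 fold changes went to 2.02 in PNs (adjusted p = 0.00207) and 2.17 in fast-growing PNs (adjusted p = 0.00167). Slow-growing PNs had a 2.01-fold higher fitted level than controls (95% interval 1.15 to 3.54) that did not pass (edgeR adjusted p = 0.104). It passed with DESeq2 (adjusted p = 0.0353) and without DRG3, where the log2 fold change went from 1.01 to 1.63 (adjusted p = 0.0081). Over all fits that left out 1 library, this log2 fold change ranged from 0.72 to 1.63 (edgeR adjusted p up to 0.318). With muscle and fat marker scores as covariates it was 0.20 (edgeR adjusted p = 0.978). The 1.47-fold difference between fast-growing and slow-growing PNs (95% interval 1.07 to 2.03) did not pass either (adjusted p = 0.168). Per kilobase of the longest annotated transcript, the Ptn level was 2.82 to 3.74 times that of Mdk in controls, 4.23 to 8.90 times in slow-growing PNs and 2.27 to 6.04 times in fast-growing PNs, so pleiotrophin was the more abundant transcript of this pair in every library.

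PTPRZ1, the receptor that both growth factors bind, is a transmembrane phosphatase of glia and their precursors. Its transcript was at 52.7, 23.8 and 21.3 CPM in controls and at 58.4, 113, 65.2, 136 and 43.7 CPM in slow-growing PNs. In fast-growing PNs, Ptprz1 lay between 151 and 177 CPM with a median of 161 CPM. The fast-growing PNs were the tightest of the groups, with an SD of 6.38% of their mean against 47.1% in slow-growing PNs, and each was above every other library. Ptprz1 rose 3.89-fold in PNs (95% interval 1.94 to 7.81, log2 fold change 1.96 ± 0.47 SE, edgeR adjusted p = 0.00739) and 4.87-fold in fast-growing PNs (3.18 to 7.46, 2.28 ± 0.27 SE, adjusted p = 0.000293). The call for all PNs ended without DRG5 (adjusted p = 0.0568), and the call for fast-growing PNs held in all 9 fits that left out 1 library. In slow-growing PNs the fitted fold over controls was 2.48 (1.21 to 5.06, adjusted p = 0.0977). It passed with DESeq2 (adjusted p = 0.0265), with a spread estimated over all 3 groups (adjusted p = 0.0219) and without DRG3 (adjusted p = 0.0416). Although no slow-growing PN reached the lowest fast-growing PN, where 3.01% of tested genes had no overlap in either direction, the 1.97-fold difference between them (1.32 to 2.92) missed the threshold (edgeR adjusted p = 0.0722) and passed with DESeq2 (adjusted p = 0.0109). With muscle and fat marker scores as covariates the Ptprz1 log2 fold change between growth groups went from 0.98 to 0.59 (edgeR adjusted p = 0.528). In slow-growing PNs against controls it went from 1.31 to 0.20 (edgeR adjusted p = 0.987).

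RefSeq promoter windows (build GRCm38.p6) were matched by symbol for 7 of the 9 genes. The 250 bases before the start are shown for Ptn and Ptprz1, a ligand and its receptor that each passed as higher in PNs, and for Mif, the 1 gene of the set that fell. Capitals mark matches on either strand to AP-1 (TGANTCA), the hypoxia response element core (ACGTG), SOX (ACAAAG), TEAD (GGAATG), the cAMP response element (TGACGTCA) or the GC box (GGGCGG), and no capitals overlapped. The Ptn window lies at chr6:36810180-36810429 on the minus strand, the Ptprz1 window at chr6:22875252-22875501 on the plus strand and the Mif window at chr10:75860278-75860527 on the minus strand.
Ptn: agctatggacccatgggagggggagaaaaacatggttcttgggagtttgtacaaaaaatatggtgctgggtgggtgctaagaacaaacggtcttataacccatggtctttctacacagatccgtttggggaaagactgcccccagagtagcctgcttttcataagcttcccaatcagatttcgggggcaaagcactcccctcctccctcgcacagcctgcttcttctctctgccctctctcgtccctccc
Ptprz1: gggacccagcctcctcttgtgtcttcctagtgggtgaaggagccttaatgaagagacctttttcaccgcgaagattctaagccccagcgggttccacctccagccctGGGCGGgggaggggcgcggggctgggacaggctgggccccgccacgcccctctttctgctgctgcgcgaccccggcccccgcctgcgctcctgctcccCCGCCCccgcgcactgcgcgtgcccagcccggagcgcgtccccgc
Mif: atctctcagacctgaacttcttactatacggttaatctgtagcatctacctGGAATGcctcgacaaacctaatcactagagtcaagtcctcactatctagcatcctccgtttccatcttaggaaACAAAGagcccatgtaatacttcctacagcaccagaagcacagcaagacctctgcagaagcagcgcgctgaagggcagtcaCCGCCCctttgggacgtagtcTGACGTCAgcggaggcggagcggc
The Ptn window held none of the 6 motifs and was 52% G and C. The Ptprz1 window was 71.6% G and C and held 2 GC boxes, a motif present in 32.7% of the 32851 windows of this length. The Sdc1, Sdc3 and Sdc4 windows also held GC boxes, 3, 3 and 4 of them, and the Cd44 window held 1 hypoxia response element core (16.6% of windows). The Mif window held 1 cAMP response element, a motif found in 1.55% of windows, whose bases lay 24 to 17 before the start, and 1 match each to the GC box, SOX (16.5% of windows) and TEAD (12.6% of windows). These matches describe the letters only.

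Mif was the only one of the 9 that was lower in tumors, and the only one whose controls and PNs did not overlap. It was at 95.3, 78.2 and 85.3 CPM in controls. In slow-growing PNs, Mif was at 24.8, 24.7, 37.9, 49.9 and 25.5 CPM. Among fast-growing PNs, it ranged from 11.3 in PN 1191 through a median of 29.8 to 45.0 CPM. All 11 PNs were below the lowest control, where 9.48% of tested genes were. Mif fell to 0.352 of the control level in PNs (log2 fold change -1.51 ± 0.28 SE, edgeR adjusted p = 0.00139), to 0.366 in slow-growing PNs (-1.45 ± 0.25 SE, adjusted p = 0.00917) and to 0.318 in fast-growing PNs (-1.65 ± 0.31 SE, adjusted p = 0.00334). These calls held in every fit that left out 1 library, with adjusted p at most 0.0420. Fast-growing and slow-growing PNs had a fitted ratio of 0.877 (95% interval 0.549 to 1.399, adjusted p = 0.737).

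The Mif transcript is the shortest of the set at 600 bases, and short transcripts were lower in PNs as a class. Among tested genes whose longest transcript was under 1 kb, the median log2 fold change in PNs against controls was -0.64 and 38.9% were lower at an adjusted p under 0.05, against a median of 0.27 and 6.68% lower among genes of 4 kb and over. After each library was corrected for its trend over transcript length and GC content, the Mif log2 fold change was -0.96 in PNs (edgeR adjusted p = 0.00914), -1.08 in fast-growing PNs (adjusted p = 0.00558) and -0.81 in slow-growing PNs, where it no longer passed (adjusted p = 0.0849). Of the 551 windows of 50 bases in this transcript, 223 (40.5%) also occurred in 7 other annotated genes. The Mif counts may therefore depend on how reads with several matching places were treated, which was not tested. D-dopachrome tautomerase (Ddt), the paralog of MIF, fell alongside it, with 64.7 ± 15 CPM (SD, n = 3) in control tissue and 21.3 ± 6.80 CPM (n = 11) in tumors (log2 fold change -1.60 ± 0.27 SE, edgeR adjusted p = 0.000648), and with the length and GC trend removed its log2 fold change was -0.89 and still passed in PNs (largest adjusted p over the fits 0.0279, leaving aside the muscle and fat covariates).

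**Figure D3:**
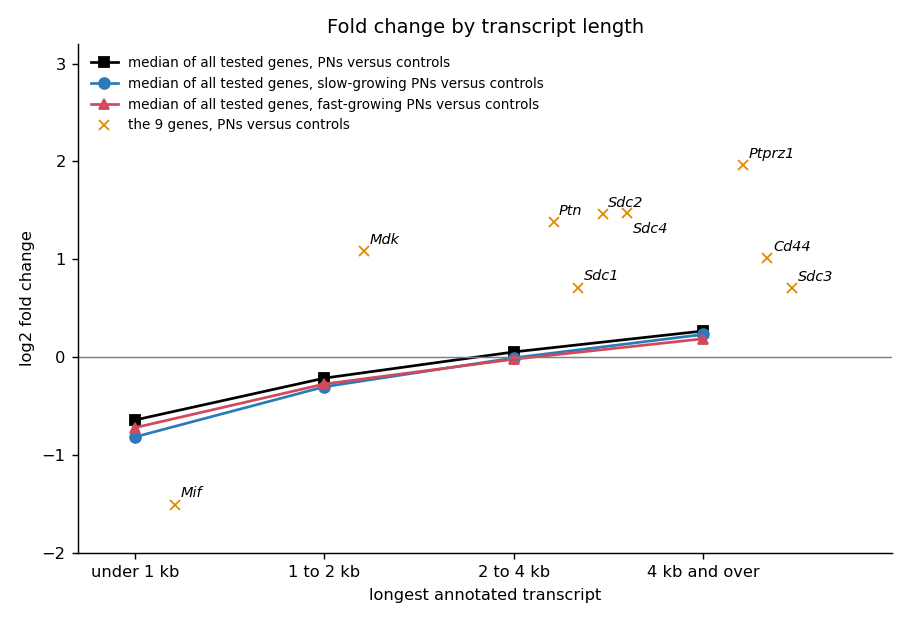
Median log2 fold change of all tested genes (y axis) in 4 classes of longest annotated transcript (x axis) for the 3 comparisons with controls (lines), with the 9 genes in PNs against controls as crosses. The medians run from -0.64 under 1 kb to 0.27 at 4 kb and over in PNs, and Mif (-1.51) lies below the median of its class while the other 8 lie above theirs.

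CD44, which binds hyaluronan and serves as the signaling partner of CD74 in the MIF receptor, was at 122, 145 and 148 CPM in controls. In slow-growing PNs, Cd44 was at 116, 277, 195, 439 and 114 CPM. In fast-growing PNs, it ranged from 212 through a median of 325 to 401 CPM. The slow-growing PNs thus spanned the whole range, with 1079 and 1206 below all controls and 1203 above all other libraries. Cd44 rose 2.23-fold in fast-growing PNs against controls (95% interval 1.61 to 3.10, log2 fold change 1.16 ± 0.21 SE, edgeR adjusted p = 0.00291). For all PNs the fitted fold was 2.02 (1.14 to 3.56, adjusted p = 0.0651), and it passed with DESeq2 (adjusted p = 0.0380). It was 1.59 in slow-growing PNs (0.791 to 3.199, adjusted p = 0.323), and fast-growing PNs had 1.41 times the slow-growing level (0.840 to 2.36, adjusted p = 0.443). With muscle and fat marker scores as covariates the Cd44 log2 fold change against controls was 0.21 in PNs, -0.24 in slow-growing and 2.19 in fast-growing PNs.

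**Figure D4:**
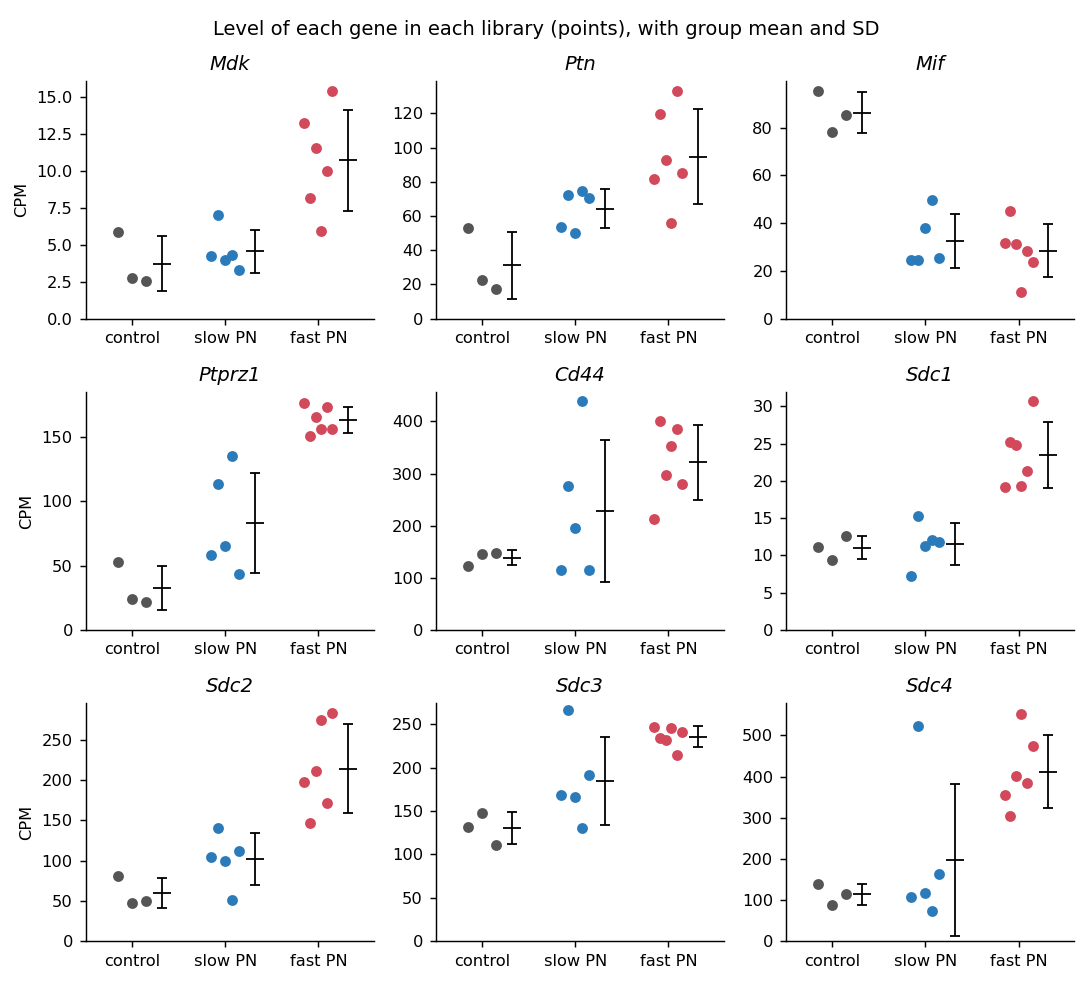
Level of each of the 9 genes (CPM, y axis from 0) in each library (points) by group, with the group mean and SD beside them (n = 3 controls, 5 slow-growing and 6 fast-growing PNs). The 6 fast-growing PNs lie above all 3 controls in 8 panels, and for Mif (11.3 to 45.0 CPM) they lie below them.

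The syndecans are transmembrane heparan sulfate proteoglycans that present growth factors to their receptors. Syndecan-1, known mainly from epithelia and plasma cells, was at 11, 9.42 and 12.6 CPM in controls. In slow-growing PNs, Sdc1 was at 7.22, 15.2, 11.3, 12.0 and 11.8 CPM. The 6 fast-growing PNs ranged from 19.2 through a median of 23.1 to 30.7 CPM. Slow-growing PNs overlapped the controls on both sides, and every fast-growing PN was above every control and every slow-growing PN. Sdc1 rose 2.04-fold from slow-growing to fast-growing PNs (95% interval 1.51 to 2.74, log2 fold change 1.03 ± 0.20 SE, edgeR adjusted p = 0.0449) and 2.05-fold from controls to fast-growing PNs (1.51 to 2.79, adjusted p = 0.00375). For slow-growing PNs against controls the fitted fold was 1.01 (0.683 to 1.51, adjusted p = 0.960), and for all PNs it was 1.64 (0.956 to 2.80, adjusted p = 0.164). With muscle and fat marker scores as covariates the Sdc1 log2 fold change in fast-growing PNs against controls went from 1.04 to 0.024. It turned to -0.57 in PNs and -0.23 in slow-growing PNs, and between growth groups it was 0.90. The call between growth groups lay close to the threshold: it ended in 8 of the 11 fits that left out 1 library (adjusted p from 0.00938 to 0.129), and with limma-voom (adjusted p = 0.0512), while the log2 fold change stayed between 0.92 and 1.15 when libraries were left out.

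Syndecan-2, known from mesenchymal cells, was at 80.5, 47.3 and 49.7 CPM in controls. In slow-growing PNs, Sdc2 was at 105, 140, 99.7, 50.5 and 112 CPM. In fast-growing PNs, it ranged from 147 through a median of 205 to 283 CPM. Every fast-growing PN was above every other library, and slow-growing PN 1203, which also had the lowest fibroblast marker sum (2140 CPM), was within the controls. Sdc2 rose 2.76-fold in PNs (log2 fold change 1.46 ± 0.44 SE, edgeR adjusted p = 0.0249) and 3.52-fold in fast-growing PNs (1.82 ± 0.28 SE, adjusted p = 0.00123). The call for all PNs ended without DRG4 (adjusted p = 0.118) or DRG5 (adjusted p = 0.123) and with the length and GC trend removed (adjusted p = 0.0527). Slow-growing PNs had a fitted fold of 1.68 over controls (95% interval 0.992 to 2.83, adjusted p = 0.170). Fast-growing PNs had a fitted 2.11-fold higher level than slow-growing PNs (1.43 to 3.12) that missed the threshold (adjusted p = 0.0572) and passed with DESeq2 (adjusted p = 0.00508). With muscle and fat marker scores as covariates the Sdc2 log2 fold change against controls went to 0.16 in PNs and 0.79 in fast-growing PNs (edgeR adjusted p = 0.886 and 0.937). It was 1.06 in slow-growing PNs and 1.31 between growth groups (edgeR adjusted p = 0.785 and 0.298). The 8 fibroblast markers were also highest in fast-growing PNs, and their part in the Sdc2 difference was not tested.

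Syndecan-3, the main syndecan of nerve and a receptor for pleiotrophin, was at 131, 148 and 111 CPM in controls. In slow-growing PNs, Sdc3 was at 169, 267, 166, 129.96 and 192 CPM. In fast-growing PNs, it lay between 214 and 247 CPM with a median of 238 CPM. Slow-growing PN 1198A was above all fast-growing PNs and slow-growing PN 1203 was within the controls. Sdc3 rose 1.63-fold in PNs (log2 fold change 0.71 ± 0.20 SE, edgeR adjusted p = 0.0195), a call that ended without DRG5 (adjusted p = 0.123), and 1.75-fold in fast-growing PNs (0.81 ± 0.13 SE, adjusted p = 0.00123). The fitted fold was 1.38 in slow-growing PNs against controls (95% interval 0.932 to 2.04, adjusted p = 0.234) and 1.27 in fast-growing against slow-growing PNs (0.995 to 1.63, adjusted p = 0.254). Opposite-strand genes (Gm12970 and Gm26716) overlap exons of Sdc3, and without a statement that strand was used in counting their reads cannot be told apart.

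Syndecan-4, a ubiquitous syndecan of focal adhesions, was at 139, 87.2 and 114 CPM in controls. In slow-growing PNs, Sdc4 was at 108, 523, 117, 73.2 and 164 CPM. Fast-growing PNs ranged from 305 through a median of 393 to 551 CPM. Slow-growing PN 1198A was among the fast-growing PNs, and the other 4 slow-growing PNs lay near the controls. Sdc4 rose 3.52-fold in fast-growing PNs against controls (95% interval 2.42 to 5.11, log2 fold change 1.81 ± 0.24 SE, edgeR adjusted p = 0.000529). For all PNs the fitted fold was 2.77 (1.17 to 6.57, adjusted p = 0.0758), and it passed with DESeq2 (adjusted p = 0.0304). With muscle and fat marker scores as covariates the Sdc4 log2 fold change turned to -0.44 in PNs (edgeR adjusted p = 0.752). It was 0.11 in slow-growing and 1.53 in fast-growing PNs against controls (edgeR adjusted p = 0.996 and 0.736). Fast-growing PNs had a fitted 2.09-fold higher level than slow-growing PNs (1.05 to 4.16, adjusted p = 0.216). Without PN 1198A this log2 fold change went from 1.06 to 1.83 and passed (adjusted p = 0.00404), and the log2 fold change of slow-growing PNs against controls went from 0.76 to -0.0064.

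PN 1198A bore on the growth comparison as a whole: without it, 6 of the 9 genes passed in fast-growing against slow-growing PNs and 1195 genes were called in place of 196. Left out in turn, other libraries gave from 0 to 3 of the 9. PN 1198A had the lowest skeletal muscle marker sum of all libraries (80.2 CPM) and the highest fibroblast marker sum of the slow-growing PNs (12403 CPM).

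Per kilobase of transcript, the order of the 9 genes changed between groups. In controls Mif was the most abundant at 144 ± 14.4 CPM per kb (SD, n = 3), above Sdc4 at 46.2 ± 10.5 with no overlap. Sdc3, Cd44, Sdc2 and Ptn followed, from 26.1 to 12.2 CPM per kb, each overlapping the next, and Ptprz1, Mdk and Sdc1 were lowest and overlapped, at 4.04, 3.54 and 3.49 CPM per kb. In slow-growing PNs (n = 5) Sdc4 (80.2 ± 75.3 CPM per kb) and Mif (54.2 ± 18.6) came first and overlapped. In fast-growing PNs (n = 6) Sdc4 stood apart at 168 ± 35.9 CPM per kb. Sdc2 (60.8), Cd44 (57.2), Mif (47.5), Sdc3 (47.4) and Ptn (37.0) followed with overlapping ranges, then Ptprz1 at 20.3 ± 1.29, and Mdk and Sdc1 at 10.2 ± 3.26 and 7.43 ± 1.399.

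Other genes of these pathways were taken from lists of known partners. With muscle and fat marker scores as covariates, none of the calls given for these named genes passed (edgeR adjusted p from 0.129 to 0.998), and the fold changes that this moved by over 1.5 times are given with each group. Among 15 further binding partners of midkine and pleiotrophin, 14 were tested in PNs against controls and 4 rose, where 12.9% of tested genes did. In fast-growing PNs 6 of 14 rose, where 14.8% of tested genes did, and in neither comparison did any of them fall. The 4 include Cspg5, and the 6 include Cspg5 and Alk. Against controls, these genes were tested only through their levels in PNs. The median log2 fold change of this list was 0.49 in PNs and 0.65 in fast-growing PNs, against 0.095 and 0.019 over all tested genes. The chondroitin sulfate proteoglycan versican (Vcan), at 62.2 ± 28.5 CPM in control tissue (SD, n = 3), rose to 319 ± 199 CPM in tumors (n = 11, log2 fold change 2.36 ± 0.64 SE, edgeR adjusted p = 0.0155). Neuroglycan C (Cspg5), another of this kind, was at 0.688 ± 0.206 CPM in control tissue and 3.44 ± 2.07 CPM in tumors (2.31 ± 0.70 SE, edgeR adjusted p = 0.0246). Its control level was too low to pass the filter, so it entered this comparison only through the tumors, where it was high. No conclusion is drawn from that pass. Cspg5 was higher in fast-growing than in slow-growing PNs, at 5.16 ± 0.716 against 1.37 ± 0.488 CPM (1.90 ± 0.25 SE, edgeR adjusted p = 0.0156). The integrin subunit Itgav rose in PNs from 115 ± 19.99 to 291 ± 129 CPM (1.34 ± 0.41 SE, adjusted p = 0.0255). These 3 PN calls ended without DRG4 or without DRG5, that for Cspg5 also without DRG3 and with limma-voom (adjusted p = 0.132), and that for Itgav also with the length and GC trend removed (adjusted p = 0.0824). The Cspg5 call between growth groups ended in 6 of the 11 fits that left out 1 library (adjusted p up to 0.108). With the muscle and fat covariates the PN log2 fold changes went to 0.60 for Vcan, 0.12 for Cspg5 and 0.25 for Itgav (adjusted p = 0.668, 0.948 and 0.828). That of Cspg5 between growth groups was 2.06 with them (edgeR adjusted p = 0.202).

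The signaling receptors named for midkine and pleiotrophin were mixed. Alk was at 3, 4 and 3 reads in the controls and at 0.983 to 5.91 CPM in fast-growing PNs. It was too low to be tested in slow-growing PNs against controls. It therefore entered the fast-growing comparison only through the group where it was high. Its pass there (edgeR adjusted p = 0.00999, limma-voom 0.104) rests on that selection, and no conclusion is drawn from it. Lrp1 rose from 283 ± 84.8 CPM (n = 3) to 509 ± 123 CPM (n = 6) in fast-growing PNs (log2 fold change 0.80 ± 0.26 SE, adjusted p = 0.0396), a call that ended in 5 of 9 fits that left out 1 library, without DRG4 and without DRG5 among them, and in the fit over all 3 groups (adjusted p = 0.0832). With muscle and fat marker scores as covariates the log2 fold changes of both Alk and Lrp1 in fast-growing PNs turned to -0.55. Nucleolin (Ncl) had means of 256 ± 25.01 CPM in tumors and 253 ± 26.6 CPM in control tissue (95% interval of the ratio 0.848 to 1.21, adjusted p = 0.932), and the sign of its small fold change turned with RLE or upper-quartile scaling. Of 6 other PTPRZ1 ligands, 1 rose in PNs, a share near the 12.9% of tested genes: L1cam, a neural adhesion molecule, went from 159 ± 82.9 to 525.6 ± 189 CPM in PNs (1.72 ± 0.38 SE, adjusted p = 0.00415). With the muscle and fat covariates its log2 fold change was 1.18 (adjusted p = 0.232).

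On the MIF side, 2 of the 5 receptors and paralog fell in PNs and none rose, where 13.4% of tested genes fell. Beside Ddt, the atypical chemokine receptor Ackr3 fell from 83.3 ± 23.2 to 27.7 ± 14 CPM (n = 3 and 11, log2 fold change -1.59 ± 0.44 SE, edgeR adjusted p = 0.0165), a call that ended without DRG3 or DRG5. With the muscle and fat covariates the log2 fold changes in PNs were -0.87 for Ddt (adjusted p = 0.327) and -0.89 for Ackr3 (adjusted p = 0.440). Cd74, the MIF receptor chain that also chaperones MHC class II, was at 126, 1268 and 1113 CPM in controls. It was at 275, 1077, 234, 85.5 and 238 CPM in slow-growing PNs and at 605 to 3211 CPM in fast-growing PNs, with a median of 1847 CPM. These values varied widely within controls, and no comparison of Cd74 passed in edgeR (adjusted p from 0.0852 to 0.769). The fitted level was 4.55-fold higher in fast-growing than in slow-growing PNs (95% interval 1.74 to 11.9, adjusted p = 0.0852), which passed with DESeq2 (adjusted p = 0.00634) and without PN 1198A (adjusted p = 0.00965). This log2 fold change of 2.18 ranged from 1.88 to 3.06 when 1 library was left out. With muscle and fat marker scores as covariates it was 2.31. Against controls, these covariates turned the Cd74 log2 fold change to -3.17 in PNs and -1.54 in fast-growing PNs, and it was -0.90 in slow-growing PNs. The 10 macrophage markers varied too, at 192 to 1062 CPM in controls, 60.8 to 534 CPM in slow-growing PNs and 320 to 1038 CPM in fast-growing PNs. The 7 T and B cell markers summed to 5.87, 253 and 260 CPM in DRG3, DRG4 and DRG5. They summed to 7.75 to 118 CPM in slow-growing and 7.96 to 121 CPM in fast-growing PNs. The part of these cell types in the Cd74 values was not tested.

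Among 9 genes for CD44 ligands and hyaluronan turnover, 1 rose and 3 fell in PNs, where 12.9% of tested genes rose and 13.4% fell. The hyaluronidase Hyal2 fell from 15.8 ± 1.11 to 7.72 ± 1.84 CPM (n = 3 and 11, log2 fold change -1.04 ± 0.20 SE, edgeR adjusted p = 0.00208). The hyaluronan synthase Has1 fell from 2.79 ± 0.358 to 1.46 ± 0.455 CPM (adjusted p = 0.0316), and the hyaluronan receptor gene Hmmr rose from 21.2 ± 11.5 to 35.7 ± 6.09 CPM (adjusted p = 0.0430), calls that ended when any of the 3 controls, or DRG3 or DRG4 and 8 PNs, respectively, was left out. The Hmmr call also ended in 4 of 8 other settings, among them RLE (adjusted p = 0.0688) and upper-quartile factors (adjusted p = 0.0795). With the muscle and fat covariates the Hmmr log2 fold change went from 0.75 to 1.22 (edgeR adjusted p = 0.164). Of 10 cytoskeletal partners of CD44 and syndecans, 3 rose in PNs and none fell, where 12.9% of tested genes rose and 26.3% changed in either direction. Moesin (Msn), which ties CD44 to actin, rose from 418 ± 31.9 to 816 ± 135 CPM (0.96 ± 0.18 SE, adjusted p = 0.00154). The scaffold Cask, a binding partner of syndecan tails, rose from 58.2 ± 13.8 to 113 ± 23.0 CPM (0.96 ± 0.20 SE, adjusted p = 0.00360), and both calls held in every fit that left out 1 library. Both ended with the muscle and fat covariates, at 0.47 for Msn (adjusted p = 0.297) and 0.60 for Cask (adjusted p = 0.288). The kinase Prkca, which syndecan-4 binds, also passed (1.11 ± 0.38 SE, adjusted p = 0.0445), but not in 8 of the 14 fits that left out 1 library, nor with the length and GC trend removed (adjusted p = 0.0680), and its log2 fold change with the covariates was 1.76 (adjusted p = 0.143).

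Enzymes that make and cut heparan sulfate proteoglycans were also listed. Of 24 heparan sulfate synthesis and editing genes, 4 rose in PNs, a share near the 12.9% of tested genes that rose, and 7 rose in fast-growing PNs, where 14.8% of tested genes did, with none lower in either. The sulfotransferases Ndst3 (9.36 ± 3.13 to 28.1 ± 11.5 CPM, edgeR adjusted p = 0.0106), Ndst1 (71.7 ± 8.42 to 127 ± 28.4 CPM, adjusted p = 0.0114) and Hs2st1 (48.2 ± 13.1 to 84.4 ± 16.9 CPM, adjusted p = 0.0122) rose in PNs, calls that each ended without DRG4 or without DRG5, and for Hs2st1 also with the length and GC trend removed (adjusted p = 0.0560), while those for the fast-growing PNs alone held when libraries were left out, though not with the muscle and fat covariates (adjusted p from 0.736 to 0.884). In fast-growing PNs the log2 fold changes of Ndst3, Ndst1 and Hs2st1 were 1.36, 1.06 and 1.39 with these covariates, and 1.69, 0.99 and 0.88 without. In all PNs these covariates took the log2 fold changes from 1.58 to 0.73 for Ndst3, from 0.83 to 0.046 for Ndst1 and from 0.81 to 0.38 for Hs2st1 (adjusted p = 0.438, 0.934 and 0.518). Heparanase (Hpse), which cleaves heparan sulfate, fell from 17.7 ± 14.5 to 2.76 ± 1.73 CPM in PNs (log2 fold change -2.68 ± 0.60 SE, adjusted p = 0.00489, without DRG4 0.0648). Of the 6 tested sheddases and heparanase, Mmp2, Mmp14 and Adam17 rose in fast-growing PNs (14.8% of tested genes did), and the metalloproteinases Mmp2 (386 ± 117 against 98.2 ± 44.3 CPM) and Mmp14 (84.2 ± 26.1 against 24.4 ± 10.2 CPM) were also higher in fast-growing than in slow-growing PNs (log2 fold changes 1.97 ± 0.38 SE and 1.78 ± 0.32 SE, both adjusted p = 0.0449). Like Sdc1, these 2 calls were near the threshold and ended in 7 of 11 fits that left out 1 library, with limma-voom (adjusted p = 0.0512 for both) and with upper-quartile factors (adjusted p = 0.0541 and 0.0506). With muscle and fat covariates the Mmp14 log2 fold change in fast-growing PNs against controls went from 1.53 to -0.021 and that of Mmp2 from 2.18 to 1.02. Between growth groups the log2 fold changes with these covariates were 2.31 for Mmp2 and 2.04 for Mmp14 (edgeR adjusted p = 0.298 and 0.260). Of the 6 glypicans, the other membrane heparan sulfate proteoglycans, 3 rose in fast-growing PNs (14.8% of tested genes did), among them Gpc3 from 81.5 ± 38.3 to 270 ± 66.6 CPM (1.69 ± 0.33 SE, adjusted p = 0.00400), which the covariates took to 0.27 (adjusted p = 0.984).

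Transcripts of ligands and receptors were compared across the 11 PNs in 6 pairs by Pearson r and Spearman rho of log2(CPM + 1), with permutation tests and adjustment over the 12 values. Mdk and Ptprz1 had r = 0.80 (adjusted permutation p = 0.0154) and rho = 0.88 (adjusted permutation p = 0.00828), and r was 0.77 without the 2 PNs farthest from the median of Mdk. After the mean of each growth group was subtracted r was 0.42 (permutation p = 0.200), and within the 6 fast-growing PNs it was 0.40. The part of the growth groups in this relation was not tested. Mdk and Ptn had r = 0.62 (adjusted permutation p = 0.105) and rho = 0.75 (adjusted permutation p = 0.0468), and r was 0.26 after group means were subtracted (permutation p = 0.445). Ptn and Ptprz1 had r = 0.60 (adjusted permutation p = 0.105) and rho = 0.71 (adjusted permutation p = 0.0520), and r was 0.17 within the 6 fast-growing PNs. Ptn with Sdc3 (r = 0.35), Mif with Cd74 (r = -0.51) and Cd44 with Cd74 (r = 0.25) did not pass by either measure, with adjusted permutation p from 0.150 to 0.715. Within the 6 fast-growing PNs r was -0.80, -0.46 and -0.59 for these 3 pairs. Without the 2 PNs farthest from the median of the first gene, r was 0.70 for Mdk with Ptn, 0.57 for Ptn with Ptprz1, 0.37 for Ptn with Sdc3, -0.11 for Mif with Cd74 and -0.23 for Cd44 with Cd74, so the last 2 rested on those libraries.

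**Figure D5:**
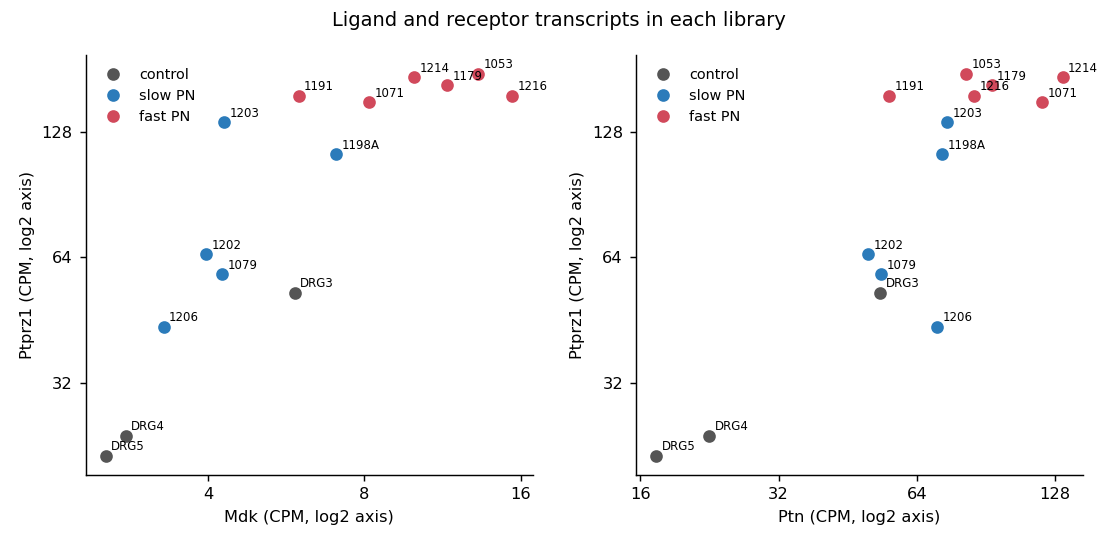
Ptprz1 (y axis, CPM) against Mdk (left) and Ptn (right) in each library on log2 axes, colored by group. The fast-growing PNs form a band at 151 to 177 CPM of Ptprz1 over Mdk levels of 5.97 to 15.4 CPM, apart from the slow-growing PNs and the controls.

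As a description, the genes whose log2(CPM + 1) followed each of the 9 most closely over the 14 libraries were listed, with libraries that share group and tissue makeup as the points. For Ptprz1 they were Adam11, Iglon5 and Cdh10 (Pearson r 0.98, 0.97 and 0.97), for Ptn Kcna6, Nlgn3 and Lrrc4c (0.95, 0.94 and 0.94), and for Mdk Greb1, Efnb2 and Lrp4 (0.92, 0.92 and 0.92). For Sdc2 they were Emp1, Vcan and Nid1 (each 0.99), for Sdc4 Creb3l2, Pcdh20 and Fndc3b (0.99, 0.98 and 0.98), for Sdc3 Rnd3, Gm16617 and Abca9 (each 0.96) and for Sdc1 Pcdhgc3, Pla2r1 and Arhgef19 (0.93, 0.93 and 0.92). For Mif they were Glrx3, Smdt1 and Timm13 (0.99, 0.98 and 0.98), and for Cd44 Wdr59, Ly86 and Bmper (0.93, 0.92 and 0.91).

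The 9 genes lie on 6 chromosomes (annotation GENCODE vM21 on mm10): Mdk at chr2:91929805-91932297, Sdc4 at chr2:164424247-164443887, Cd44 at chr2:102811141-102901665, Ptn at chr6:36714929-36810220, Ptprz1 at chr6:22875502-23052916, Mif at chr10:75859353-75860240, Sdc1 at chr12:8771323-8793715, Sdc2 at chr15:32920723-33034935 and Sdc3 at chr4:130792537-130826319. Ptprz1, Sdc1, Sdc2 and Sdc3 are on the plus strand and the others on the minus strand, and each is a protein-coding gene counted over its exons.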

How the data were processed

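Bulk RNA-seq libraries of 3 control DRG samples and 11 PNs were analysed. Per the labels and the authors' methods, reads were aligned to mm10 (TopHat2 2.0.9), and the deposited counts are whole-number reads per gene over exons (featureCounts 1.5.2), with no normalization. Whether strand was used, and how reads with several matching places were treated, is not given in the sources used here. A second deposited table, of log2 normalized values, was not used.

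Counts were fitted with edgeR 4.0.16 in R 4.3.3 (filterByExpr, TMM factors, quasi-likelihood test, Benjamini-Hochberg adjustment over all genes tested, threshold 0.05), using only the libraries of each comparison and no covariate. Fold changes are log2 with SE and 95% interval. The fits were tested on simulated data. Nothing states that the samples of a group came from separate litters or batches, and p-values measure the spread between these samples. No 2 libraries were near-identical. The 9 genes and the gene lists were chosen with earlier results of these data known. Pathway genes named are those that passed, at most 3 of lowest p for each list and comparison, plus Cd74, Alk, Lrp1 and Ncl, and pathway genes were left unnamed where a paragraph gives a count alone. Genes were matched to GENCODE vM21 by symbol (22750) or older symbol (916), and 396 were not matched. Permutation tests used 100000 resamples. Alternatives were RLE and upper-quartile factors, DESeq2 1.42.0, limma-voom 3.58.1, no filter or at least 50 counts, 1 fit over all groups, muscle and fat marker scores as covariates, removal of a length and GC trend, and leaving out each library. At the depths used, 3 counts correspond to 0.171 to 0.313 CPM, which limits Alk in controls, and counting error alone is covered by such a floor.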

Additional observations from a re-analysis of the deposited data

Results flagged for a closer look

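Sdc1 was listed because the direct test between the growth groups passed. In this fit, which held no controls, fast-growing PNs lay 1.03 higher on the log2 scale than slow-growing PNs (edgeR adjusted p = 0.0449), with all 6 fast-growing PNs above all 5 slow-growing PNs. No library of the slow-growing or fast-growing group stood apart by Dixon's criterion in any of the 18 combinations of gene and group tested on log2(CPM + 1), where chance alone would give about 1 in 20. With 5 or 6 libraries in a group this criterion can miss a library that matters. It did not flag PN 1198A, without which 1195 genes were called between growth groups in place of 196.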

How the results depend on the processing

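RLE or upper-quartile factors, no filter and the stricter filter left the direction and the call of all 36 fold changes of the 9 genes (9 genes in 4 comparisons) as they were. DESeq2 changed 7 of the 36 and 1 fit over all groups changed 3, all by passing in addition, and the length and GC trend changed 4. The number of the 9 called higher in slow-growing PNs was 0 by edgeR, with 2 higher at an unadjusted p under 0.05 (Ptn and Ptprz1), 2 by DESeq2 and 1 by the fit over all groups. In fast-growing against slow-growing PNs it was 1, but 4 by DESeq2, 3 by the fit over all groups, 2 with the length and GC trend removed and 0 by limma-voom. With that trend removed, 0 of the 9 were lower in slow-growing PNs. All genes changed in slow-growing PNs numbered 1769 in the reported fit, 3542 by DESeq2, 3280 in the fit over all groups and 1140 with the length and GC trend removed. Between growth groups the count was 196, against 130 with RLE factors, 72 with upper-quartile factors, 1592 by DESeq2, 34 by limma-voom and 423 in the fit over all groups. Higher calls made up 63.3% of the 196 and 53.8% with RLE factors, 79.4% by limma-voom and 102 of 204 with the length and GC trend removed.

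With scores of the muscle and fat markers, whose levels differ between the groups, as covariates, edgeR called 513 genes in PNs against controls and 0 in each of the other 3 comparisons (1075, 1132 and 1622 genes at an unadjusted p under 0.05). None of the 9 then passed in any comparison, neither higher (0) nor lower (0). In PNs the log2 fold changes of Ptn, Ptprz1, Sdc2 and Sdc3 went from 1.38, 1.96, 1.46 and 0.71 to 0.50, 0.36, 0.16 and 0.25, and in fast-growing PNs those of Sdc1 and Sdc2 went from 1.04 and 1.82 to 0.024 and 0.79. Others stayed about as large or grew: Mif was at -1.23 in PNs, -1.57 in slow-growing and -2.23 in fast-growing PNs, Ptprz1, Cd44 and Sdc4 at 1.84, 2.19 and 1.53 in fast-growing PNs, and Sdc1 at 0.90 between growth groups. Signs turned in PNs for Mdk (-0.78), Sdc1 (-0.57), Sdc4 (-0.44), Cd74 (-3.17) and Ncl (-0.11), in slow-growing PNs for Mdk (-0.24), Sdc1 (-0.23) and Cd44 (-0.24), and in fast-growing PNs for Mdk (-1.11), Mmp14 (-0.021), Cd74 (-1.54), Alk (-0.55) and Lrp1 (-0.55). Marker level and group cannot be told apart here.

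Near 0, signs also turned for Sdc1 in slow-growing PNs by limma-voom (-0.0074), Cd74 in PNs in the fit over all groups (-0.037) and Ncl in PNs with RLE factors (-0.041), upper-quartile factors (-0.032), DESeq2 (-0.038), the strict filter (-0.076) and the length and GC trend removed (-0.26). After subtraction of growth-group means, r turned to -0.063 for Ptn with Sdc3 and to -0.28 for Cd44 with Cd74.

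When libraries were left out in turn, the genes changed ranged from 2061 to 4779 in PNs, 599 to 2454 in slow-growing PNs, 3342 to 5246 in fast-growing PNs and 2 to 1195 between growth groups. The lowest counts came without DRG5 in the first 3 of these, and without 1079, 1202, 1206, 1053 or 1191 between growth groups, while 1195 came without 1198A. The 9 genes called higher ranged from 0 (without DRG5) to 5, 0 to 2, 6 to 8 and 0 to 6, and Mif stayed the 1 gene lower in each comparison with controls. Log2 fold changes that changed sign ranged from -0.10 to 0.17 for Sdc1 and -0.0064 to 1.01 for Sdc4 in slow-growing PNs, from -0.33 to 0.014 for Mif between growth groups, and from -0.082 to 0.86 for Cd74 and -0.062 to 0.078 for Ncl in PNs. Where not stated, the cause was not tested. No paired analysis was possible because the groups share no replicate number. With 3 controls, the comparisons with controls rest on each of them.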
